A study of Drosophila melanogaster with 4 samples.

Results

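The digestive enzyme genes of *Drosophila melanogaster* described here were 51 genes out of 12050 with a probe on the arrays. They were chosen by gene symbol, by a rule that uses no measured value but was written with earlier results of these data known, and comprised 16 Jonah genes (symbols starting with Jon and a digit), 11 trypsin genes (symbols ending in Try), 10 maltase genes (Mal-A and Mal-B), 3 amylase genes (Amy-p, Amy-d and Amyrel), 6 alpha-mannosidase genes (LMan) and 5 others, which were yip7, tobi, Ser6, Ser8 and Ser12. Each had 1 probe, and none shared its probe with another of them.

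Jonah genes encode chymotrypsin-like serine proteases, first found as transcripts of the larval midgut, and the alpha, beta, gamma, delta, epsilon and related Try genes encode trypsins that lie side by side. Maltases are alpha-glucosidases that split the short sugars released from starch by amylases, and LMan genes encode lysosomal alpha-mannosidases. Digestive proteases, maltases and amylases are secreted by cells of the midgut epithelium, and their transcript levels are known to vary with diet and feeding. The LMan genes are counted among the digestive enzyme genes here by the rule for symbols.

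Larvae in the third instar with the *trx* alleles trxE3 and trxB11 over each other, in a w1118 background, were used whole and compared with w1118;+;+ larvae of an isogenic wild-type line. *trx* encodes the histone methyltransferase Trithorax, and the comparison addressed which genes change in its mutants. All larvae were raised on food with bromophenol blue, and wandering larvae with a blue gut were taken. According to the methods, the mutant stock had received chromosomes X, Y and 2 of the isogenic line, and the third chromosome, which carries the mutant alleles, is not listed among them. There were 2 biological replicates of mutant larvae, which are different RNA extractions. No source used here states whether these came from separate cultures, so p-values measure the spread between extractions, which may be technical. Wild-type RNA was 1 pool, so the spread among wild-type larvae enters no test. The pool was amplified 2 times and the arrays of a replicate shared 1 amplified reference, so a difference between mutant extracts cannot be told apart from one between amplifications. Each replicate was hybridized to 2 arrays with the dyes exchanged. Replicate 1 is on arrays 1 and 2, replicate 2 on arrays 3 and 4, and the mutant was labeled in Cy3 on arrays 1 and 3 and in Cy5 on arrays 2 and 4.

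Each value is a log2 ratio, mutant over wild type, so 1 is 2-fold higher in the mutant and -1 is 2-fold lower. They hold no signal intensities. The level of an enzyme transcript, its distance from background and a saturated spot cannot be read from them. Precision against wild type is limited by how many RNA extracts there are. In whole larvae, a change in RNA per cell cannot be told apart from a change in the number of cells. The probe for *trx* had ratios of 0.22, 0.13 and 0.28 on arrays 2, 3 and 4 and no value on array 1, and since its place relative to the mutations is not known here, it does not check the genotype.

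Of the 51 digestive enzyme genes, 45 were measured on at least 1 array, 40 in both replicates, which were tested, and 27 on all 4 arrays. An array gave values for 38, 33, 40 and 36 of them in array order, which is 74.5%, 64.7%, 78.4% and 70.6%, against 78.1%, 74.8%, 84.9% and 78.3% of all genes. No value was left for Jon25Bi, Jon65Ai, thetaTry, iotaTry, LManIII and LManV. A further 5 genes had values in 1 replicate. Among these, gammaTry had 2.35 and 2.29 in replicate 2, etaTry 0.47 and Jon99Ciii 0.09 on array 1, and deltaTry 0.13 and LManVI -0.18 on array 3.

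Digestive enzyme genes differed widely in the mutant larvae: a group of Jonah, trypsin and maltase genes had much higher ratios than wild type, others lay near 0, and none was 2-fold lower. The ratios of the high genes were mostly larger in replicate 1 than in replicate 2. Each gene was tested with limma on the 2 replicate means, and was called at an adjusted p under 0.05 with a mean change of at least 2-fold. There were 3 genes called higher and 0 called lower out of 40, where 1.57% of the 10036 genes tested were called higher and 2.51% lower. At an unadjusted p under 0.05 in limma, 8 were above 0 (20%, against 17.4% of all genes) and 9 below (22.5%, against 20.8%), which is near the share over all genes. With no minimum fold change, limma gave 4 higher and 3 lower at an adjusted p under 0.05. The share of all genes at that threshold was not counted, so these counts are not read as a result about the digestive enzyme genes. A mean at least 2-fold higher was found for 13 of the 40 genes (32.5%) and for 2.71% of all genes. The median log2 ratio was 0.43 over the digestive enzyme genes and -0.02 over all genes.

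**Figure D1:**
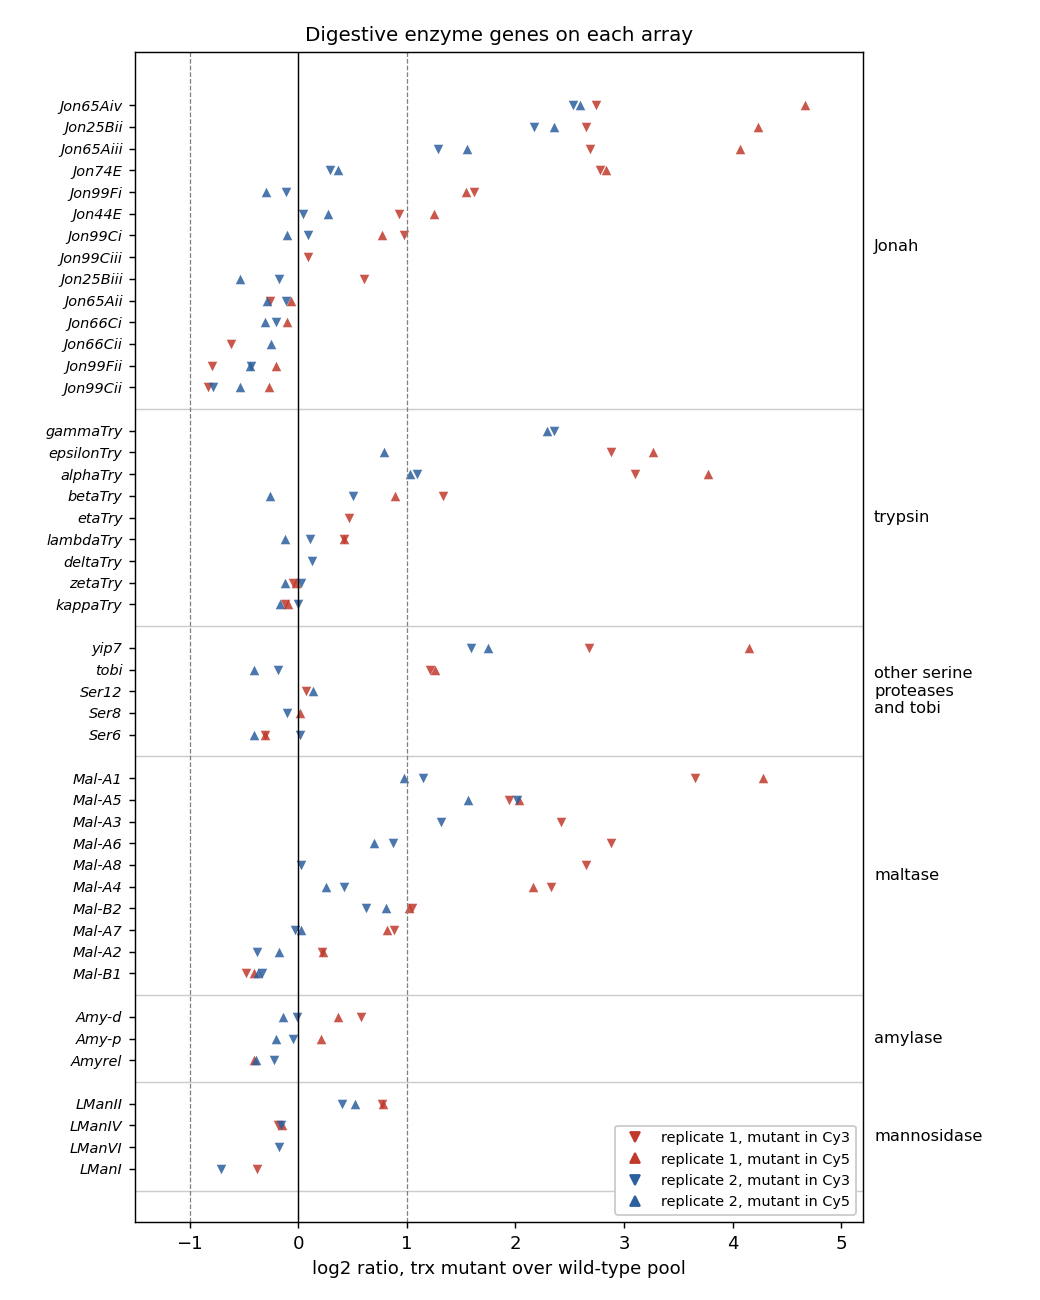
Log2 ratio of *trx* mutant over wild-type pool (x axis) for each of the 45 digestive enzyme genes with a value (y axis, by family and mean), 1 triangle per array, colored by biological replicate and pointing down or up for mutant RNA in Cy3 or Cy5. Dashed lines mark 2-fold. The genes at the top of the Jonah, trypsin and maltase groups lie right of the 2-fold line, and the red triangles of replicate 1 mostly lie right of the blue ones of replicate 2.

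The 3 genes called higher were the proteases Jon65Aiv and Jon25Bii and the maltase Mal-A5. Jon65Aiv had log2 ratios of 2.74 and 4.66 in replicate 1 and 2.53 and 2.59 in replicate 2. All 4 arrays were far above 0, array 2 most of all, and the mean was 3.13, or 8.74-fold (standard error 0.343, limma adjusted p = 0.0377, n = 2 replicates). Jon25Bii had 2.65 and 4.23 in replicate 1 and 2.17 and 2.35 in replicate 2. Its arrays were ordered in the same way, with a mean of 2.85, or 7.21-fold (standard error 0.357, adjusted p = 0.0439). Without array 1, neither Jonah gene was called, with means of 3.61 and 3.25 and adjusted p values of 0.058 and 0.0618. Mal-A5 had 1.94 and 2.03 in replicate 1 and 2.01 and 1.56 in replicate 2. Its replicates overlapped, and the mean was 1.88, or 3.69-fold (standard error 0.0768, adjusted p = 0.0192). The call of Mal-A5 was made under each of 13 settings tried, with adjusted p values from 0.000305 to 0.0323.

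A further 10 genes had means at least 2-fold above 0 and were not called, with adjusted p values between 0.0659 and 0.304 (limma, n = 2 replicates). The proteases among them were yip7, Jon65Aiii, Jon74E, alphaTry and epsilonTry. The serine protease gene yip7 had 2.68 and 4.15 in replicate 1 and 1.59 and 1.75 in replicate 2 (mean 2.54, standard error 0.523, adjusted p = 0.0774). Jon65Aiii had 2.69 and 4.07, then 1.29 and 1.55 (mean 2.40, standard error 0.589, adjusted p = 0.0977). For both genes every array was more than 2-fold above 0, and the replicates did not overlap. Jon74E had 2.78 and 2.83 in replicate 1 and 0.29 and 0.37 in replicate 2 (mean 1.57, standard error 0.741, adjusted p = 0.235). It was thus high on the arrays of replicate 1 and close to wild type on those of replicate 2. The trypsin gene alphaTry had 3.10 and 3.77, then 1.09 and 1.03 (mean 2.25, standard error 0.71, adjusted p = 0.139). Its neighbor epsilonTry had 2.88 and 3.27, then 0.79 on array 4, with no value on array 3 (mean 1.93, standard error 0.685, adjusted p = 0.161). With yip7, Jon65Aiii, alphaTry and the maltase Mal-A3, 7 of the 40 genes were called where the dye of the mutant was a term in a fit of the 4 arrays (2.22% of all genes), and 9 where the 4 arrays were taken as independent samples with no dye term. For Mal-A3, with values only where the mutant was in Cy3, the dye term could not be estimated. Both fits count each RNA extract more than once. In the latter, which adds Mal-A1 and epsilonTry, 2.39% of all genes were called higher.

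Among the maltases, Mal-A1, Mal-A3, Mal-A4, Mal-A6 and Mal-A8 were also at least 2-fold above 0 in the mean. Mal-A1, first described as a protein of larval viscera, had log2 ratios of 3.65 and 4.28 in replicate 1 and 1.15 and 0.97 in replicate 2 (mean 2.51, standard error 0.868, adjusted p = 0.156). This was the highest mean of a maltase, and its replicates lay 2.90 apart. Mal-A4 had 2.33 and 2.16, then 0.42 and 0.26 (mean 1.29, standard error 0.57, adjusted p = 0.215). Mal-A6 had 2.88 on array 1, then 0.87 and 0.70 (mean 1.83, standard error 0.625, adjusted p = 0.153). Both were more than 2-fold higher in replicate 1 and less in replicate 2. Mal-A3 and Mal-A8 had values on the arrays with the mutant in Cy3, namely 2.42 and 1.31 for Mal-A3 (mean 1.87, standard error 0.335, adjusted p = 0.0659) and 2.65 and 0.03 for Mal-A8 (mean 1.34, standard error 0.783, adjusted p = 0.304). For these genes the dye exchange gives no check of the ratio. Over all 10 maltases the median log2 ratio was 1.32, with 2.11 in replicate 1 and 0.53 in replicate 2.

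The 2 replicates were then set side by side. In replicate 1, 18 of the 40 genes were at least 2-fold higher than wild type (45.0%, against 3.05% of all genes), and in replicate 2 there were 8 (20.0%, against 2.57%). The 8 genes of replicate 2 were all among the 18 of replicate 1, and they were Jon25Bii, Jon65Aiii, Jon65Aiv, yip7, Mal-A1, Mal-A3, Mal-A5 and alphaTry. The other 10 had ratios between 1.03 and 3.08 in replicate 1 and between -0.30 and 0.79 in replicate 2. The median over the 40 genes was 0.81 in replicate 1 and -0.01 in replicate 2, while over all genes it was -0.03 and -0.02. The median difference, replicate 1 minus replicate 2, was 0.53 for the digestive enzyme genes and 0.00 for all genes.

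**Figure D2:**
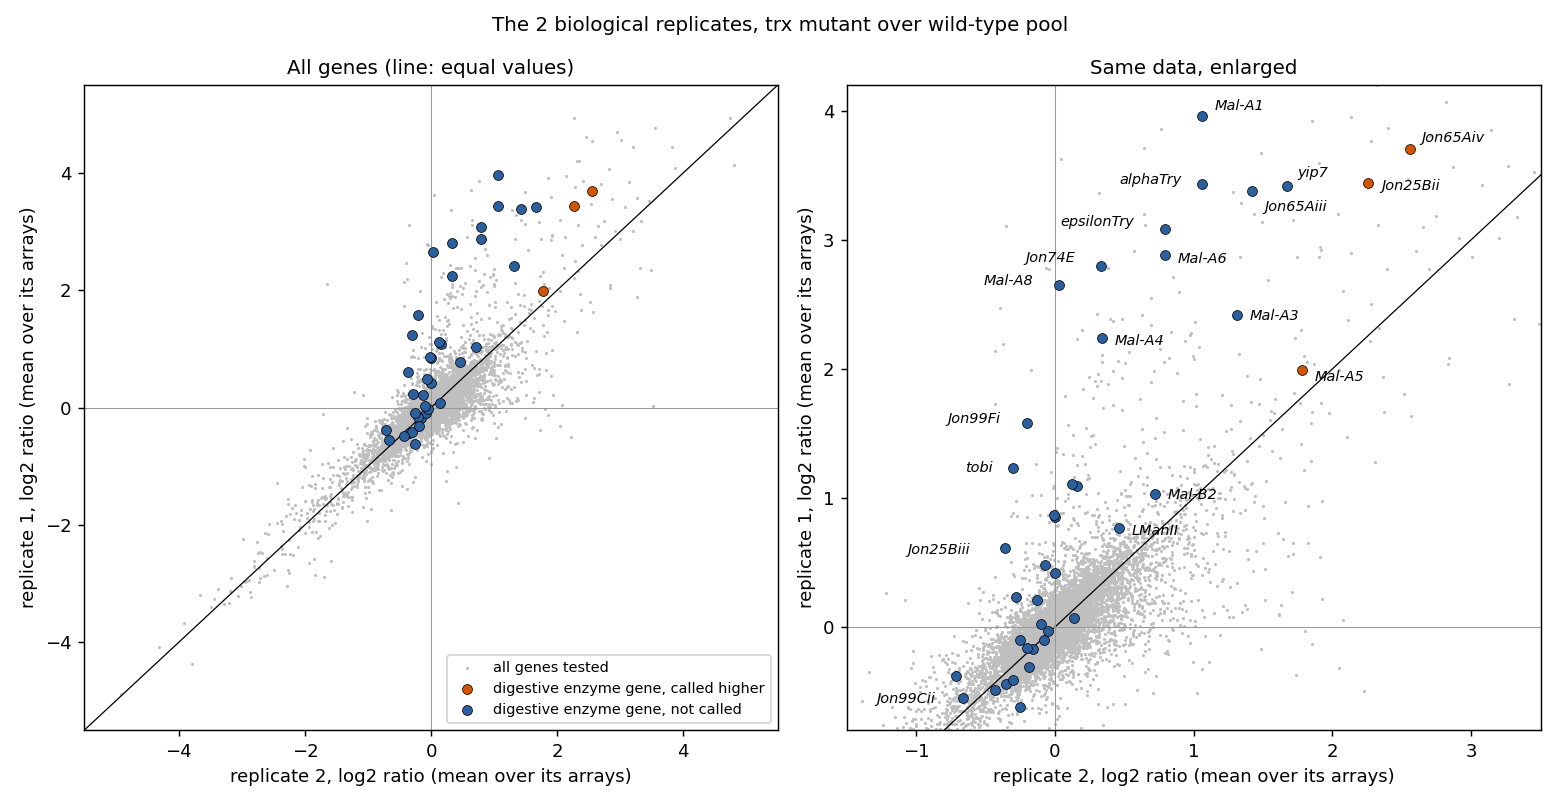
Mean log2 ratio in replicate 1 (y axis) against replicate 2 (x axis) for the 10036 genes tested (gray) and the 40 digestive enzyme genes (orange where called higher, blue otherwise), with the line of equal values. The right panel enlarges the region of the digestive enzyme genes, of which 32 of 40 (80.0%, against 50.5% of all genes) had the larger value in replicate 1. Mal-A5 lies close to the line.

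Replicate 1 was above replicate 2 by at least 1 log2 unit for 14 of the 40 genes (35.0%) and for 1.39% of all genes, and 0 digestive enzyme genes differed as much the other way. In all, 140 genes differed so, these 14 among them. On genes with a value on all 4 arrays, both arrays of replicate 1 lay above both of replicate 2 for 19 of 27 digestive enzyme genes (70.4%), against 19.0% of all genes. The reverse was seen for 1 of 27 (3.7%), against 19.6% of all genes.

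The difference between replicates was tested with limma on the 4 arrays with the dye of the mutant as a term. The arrays of a replicate carry the same RNA, so this test compares 2 RNA extracts with their reference amplifications and says nothing of the genotype. Of 27 digestive enzyme genes, 8 were higher in replicate 1 and 0 in replicate 2 at an adjusted p under 0.05 and a difference of at least 1, where 1.13% and 0.634% of the 7257 genes tested were. Mal-A1 differed by 2.90 (standard error 0.193, adjusted p = 0.00262), Jon74E by 2.48 (standard error 0.0776, adjusted p = 0.00074) and alphaTry by 2.37 (standard error 0.178, adjusted p = 0.00329). Jon65Aiii differed by 1.97, Mal-A4 by 1.90 and yip7 by 1.74, with adjusted p values of 0.0134, 0.000862 and 0.0289. Jon99Fi and tobi, which were not 2-fold higher in the mean, complete the 8. Jon99Fi had 1.62 and 1.54 in replicate 1 and -0.11 and -0.30 in replicate 2, a difference of 1.78 (adjusted p = 0.000897). The gene tobi encodes an alpha-glucosidase-like enzyme that is known to respond to insulin and adipokinetic hormone, and it had 1.21 and 1.26, then -0.19 and -0.41, a difference of 1.54 (adjusted p = 0.00241). Both genes were thus more than 2-fold higher than wild type in replicate 1 and below it in replicate 2.

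Of the 3 genes called higher against wild type, none was called in this test. The difference was 0.20 for Mal-A5 (adjusted p = 0.509), 1.18 for Jon25Bii (adjusted p = 0.0996) and 1.14 for Jon65Aiv (adjusted p = 0.196). Without values on all 4 arrays, and so not tested, Mal-A8 differed by 2.62, epsilonTry by 2.29, Mal-A6 by 2.09 and Mal-A3 by 1.11.

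A group of 4 proteases, Jon25Bii, Jon65Aiii, Jon65Aiv and yip7, also differed between the dye-exchanged arrays of replicate 1. On array 1 they had log2 ratios between 2.65 and 2.74, and on array 2, with the same RNA and the mutant in Cy5, between 4.07 and 4.66. Their ratios thus nearly coincided on array 1, and on array 2 all of them were higher by 1.37 to 1.92. In replicate 2 the same exchange changed their ratios by 0.06 to 0.26. A ratio higher by at least 1 log2 unit with the mutant in Cy5 was found in replicate 1 for these 4 of 29 digestive enzyme genes (13.8%, against 1.06% of all genes) and in replicate 2 for 0 of 33 (against 0.898%). The part of the dye in these values was not tested. The standard errors over replicate means leave out the difference between dyes.

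**Figure D3:**
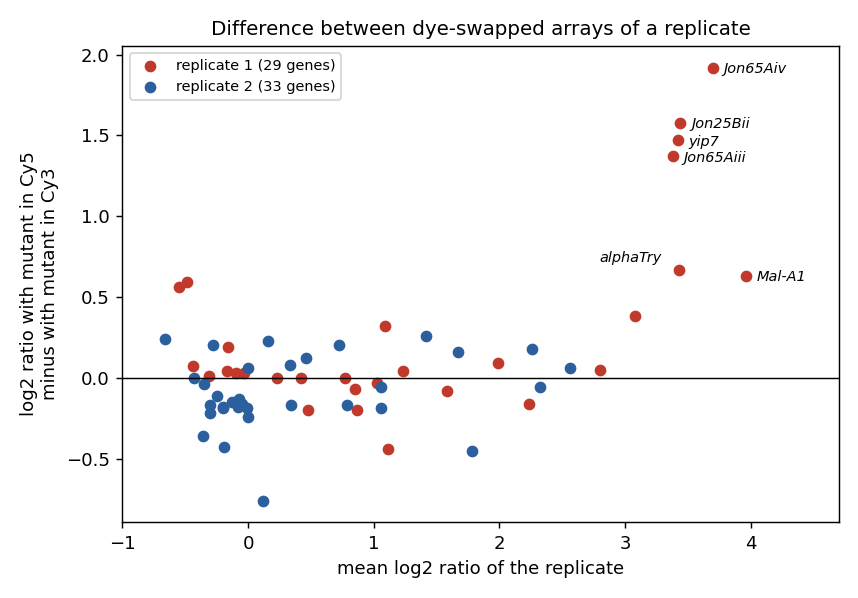
Log2 ratio with the mutant in Cy5 minus that with the mutant in Cy3 (y axis) against the mean log2 ratio of the replicate (x axis), 1 point per digestive enzyme gene with both arrays of a replicate. The 4 proteases at the upper right, all of replicate 1 (red), had differences between 1.37 and 1.92, whereas in replicate 2 (blue) the highest difference was 0.26.

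Many of these genes lie side by side, and neighbors did not all have like ratios. All 8 Mal-A genes lie in 1 run on chromosome arm 2R. There, 6 of 8 were at least 2-fold higher in the mean, while Mal-A2 had 0.22, 0.23, -0.38 and -0.18 in array order and Mal-A7 0.88, 0.82, -0.03 and 0.03. In the run of yip7 and the Jon65A genes on 3L, 3 of 4 genes tested were at least 2-fold higher, and the exception, Jon65Aii, had -0.26, -0.07, -0.11 and -0.29. The medians of that run were 3.40 in replicate 1 and 1.54 in replicate 2.

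In the run of 11 trypsin genes on 2R, 6 were tested. The adjacent genes alphaTry and epsilonTry were at least 2-fold higher, and betaTry had 1.33, 0.89, 0.50 and -0.26 (mean 0.61, adjusted p = 0.241). On the other side, zetaTry, kappaTry and lambdaTry had means of -0.04, -0.09 and 0.21. On 2L, Jon25Biii had 0.61 on array 1 and -0.18 and -0.54 in replicate 2, next to Jon25Bii, which was called higher. Several of these families hold related copies, such as the trypsin genes and the Jon99C and Jon99F genes, whose sequences were not compared here. Binding of a transcript to the probe of its copy was not tested.

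**Figure D4:**
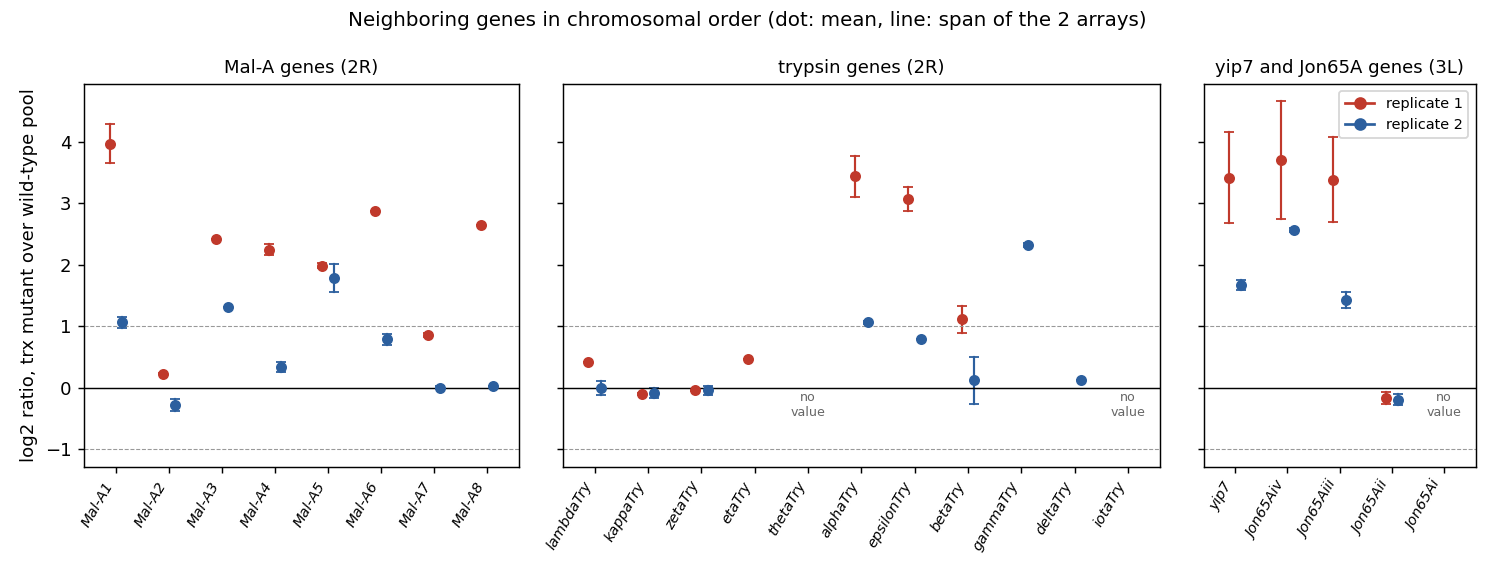
Log2 ratios (y axis) of neighboring digestive enzyme genes in chromosomal order (x axis) in 3 runs, with the mean of each replicate (dot) and the span of its 2 arrays (line, where both had a value). Mal-A1, Mal-A6 and Mal-A8 show the widest gaps between replicates among the maltases, while Mal-A5 has overlapping replicates and Jon65Aii lies near 0 beside 3 high neighbors.

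By chromosome, 12 of the 51 genes lie on 2L, 24 on 2R, 8 on 3L, 6 on 3R and 1 on X. On the third chromosome, which was not listed as exchanged, 4 of 12 genes tested were at least 2-fold higher in the mean. These were yip7, Jon65Aiv, Jon65Aiii and Jon74E on 3L. On 2R, of the isogenic second chromosome, it was 8 of 19, and on 2L 1 of 8. The share of all genes by arm was not counted, so these counts are not read as a difference between arms.

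The remaining Jonah genes had smaller ratios in both directions. The lowest mean among the 40 genes was that of Jon99Cii, with -0.83, -0.27, -0.78 and -0.54 (mean -0.60, standard error 0.0568, adjusted p = 0.0324), which is under 2-fold. Its near relative Jon99Fii had a mean of -0.46 (adjusted p = 0.0371). Both were below 0 on every array, whereas their neighbors Jon99Ci and Jon99Fi had means of 0.43 and 0.69 and values above 0 on both arrays of replicate 1. Jon44E had 0.93 and 1.25, then 0.04 and 0.27 (mean 0.62, adjusted p = 0.223). Jon66Ci and Jon66Cii had means of -0.17 and -0.44. The 13 Jonah genes tested had medians of 0.87 and -0.20 in replicates 1 and 2.

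The Mal-B genes on 2L differed less between replicates than most Mal-A genes. Mal-B2 had 1.05, 1.02, 0.62 and 0.81, a mean of 0.87, or 1.83-fold (standard error 0.106, adjusted p = 0.0421). Its neighbor Mal-B1 had -0.48, -0.41, -0.33 and -0.37, a mean of -0.40 (standard error 0.0543, adjusted p = 0.0475). These neighboring genes thus had opposite signs on every array, both under 2-fold in the mean.

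The amylases, which cut starch into the sugars that maltases split, stayed within 2-fold. Amy-d had 0.58 and 0.37 in replicate 1 and -0.01 and -0.14 in replicate 2 (mean 0.20, adjusted p = 0.447), and its near-identical copy Amy-p had 0.21 on array 2 and -0.05 and -0.20 in replicate 2 (mean 0.04). Amyrel, a diverged relative, had -0.41 on array 2 and -0.22 and -0.39 in replicate 2 (mean -0.36, adjusted p = 0.0585). The mannosidase gene LManII had 0.77, 0.78, 0.40 and 0.52 (mean 0.62, adjusted p = 0.0627), while LManI had -0.38 and -0.71 on arrays 1 and 3 (mean -0.55, adjusted p = 0.0745) and LManIV had a mean of -0.16. Of the other serine protease genes, Ser6, Ser8 and Ser12 had means of -0.25, -0.04 and 0.10. In these families, which include no Jonah gene, trypsin or maltase, yip7 was the sole gene at least 2-fold higher in the mean.

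Other secreted enzymes of the gut were looked up from lists chosen with earlier results of these data known. Of 7 lysozyme genes 6 were tested, of which 3 were called higher and 1 lower (against 1.57% and 2.51% of all genes). Their median was 2.82 in the replicate 1 arrays and 1.99 in those of replicate 2. LysC, LysD and LysS were the higher genes, with means of 2.83, 2.59 and 3.01, and LysE was lower with -1.41. LysD had 1.75 on array 1 and 3.80 on array 2, then 2.30 and 2.49, so that its dye-exchanged arrays differed in replicate 1 by 2.05. Of 9 lysozyme and lipase genes with both arrays of replicate 1, 4 were higher by at least 1 log2 unit with the mutant in Cy5, the others being LysC by 1.48, mag by 1.31 and LysB by 1.07, and in replicate 2 the same 4 genes differed by -0.12 to 0.22. Of 4 lipase genes, 0 were called, with 2 above 0 and 1 below at an unadjusted p under 0.05 in limma, a threshold that 38.2% of all genes passed. The gene mag, which encodes the midgut lipase Magro, had 2.97 and 4.28 in replicate 1 and -0.06 and 0.14 in replicate 2 (mean 1.83, adjusted p = 0.305). Lip3 had 3.16 and 3.59, then 1.55 and 1.28 (mean 2.40, adjusted p = 0.0972). Lip1 had the lowest mean of the lipases, -0.31. Both mag and Lip3 were called higher in replicate 1 than in replicate 2, with differences of 3.59 and 1.96 (adjusted p = 0.00302 and 0.00458).

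Genes known to regulate digestive enzymes stayed within 2-fold in the mean. Of 14, 13 were tested and 0 called, with 4 above 0 and 2 below at an unadjusted p under 0.05 in limma (38.2% of all genes in either direction), and the medians of replicates 1 and 2 were 0.00 and -0.04. They ranged from -0.50 for sug (adjusted p = 0.0693), which encodes the sugar-responsive factor Sugarbabe, to 0.61 for the GATA factor srp (adjusted p = 0.0304). The activin-like ligand gene daw, known to repress digestive enzyme genes in the larval gut, had a mean of 0.04. Of 13 genes of hormonal and feeding control 7 were tested and 0 called, with 1 above 0 at an unadjusted p under 0.05 in limma (against 17.4% of all genes). Their highest mean was 0.84 for Akh (adjusted p = 0.0286), the gene of adipokinetic hormone, and the lowest was -0.15 for NPF, a neuropeptide of feeding.

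Marker genes of tissues were compared in the same way. Of 13 midgut epithelium markers 9 were tested and 0 called, with 0 at an unadjusted p under 0.05 in limma (against 38.2% of all genes), and the medians of replicates 1 and 2 were 0.20 and -0.05. The highest was Ssk, a junction protein gene of the gut epithelium, with 1.88 on array 1 and 0.38 on array 3 (mean 1.13, adjusted p = 0.187), and Vha100-4, a proton pump subunit, had 2.41 on array 1 alone. The lowest means were -0.11 for nub and for GATAe. The markers mex1, Myo31DF and Npc1b had no value. Replicate 1 was above replicate 2 for 7 of the 9 markers tested, against 50.5% of all genes. The median difference of the markers was 0.21, against 0.00 for all genes, which is the direction of the digestive enzyme genes at a smaller size. This direction was also seen outside the gut. Median differences were 1.55 over 3 salivary glue genes tested, 0.22 over 3 fat body genes and 0.05 over 6 haemocyte genes. Inx7, a gap junction gene, had 0.46 and 0.49 in replicate 1 and -0.15 and -0.09 in replicate 2, a difference of 0.60 (adjusted p = 0.0135), which is under the minimum of 1 for a call.

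Markers of tissues outside the gut included genes called higher. Among 3 salivary glue genes tested of 6, Sgs5 was called higher in limma (against 1.57% of all genes). It had 4.56 on array 1 and 3.01 on array 3 (mean 3.78, adjusted p = 0.0431). Both arrays have the mutant in Cy3, so the dye exchange gives no check of this ratio. Sgs4 had 1.85 and a mean of 0.20 in the replicates and Sgs1 had a mean of -0.12. Among 3 fat body genes tested of 6, Lsp2 was called higher, with no value on array 4 (mean 3.98, adjusted p = 0.0142), Fbp2 had 1.68 and 0.48 and Fbp1 had a mean of 0.27. Of 6 haemocyte genes 0 were called, from -0.96 for He to 0.61 for srp, with 4 at an unadjusted p under 0.05 in limma (against 38.2% of all genes). Glue and storage protein genes are used by larvae at particular times of the third instar. The part of larval stage, or of the make-up of tissues in an extract, in the ratios of digestive enzyme genes was not tested.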

How the data were processed

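RNA of 2 biological replicates of *trx* mutant larvae was measured against 1 wild-type pool on 4 two-color arrays. Each deposited value is a log2 ratio, mutant over wild type. By their methods, the authors read scans in GenePix Pro, discarded spots of low quality, applied normexp to the background, used OLIN within arrays and equalized the median absolute deviation between arrays. Limma is in the submitters' processing notes as well, and the version used there is not given in the sources used. A spot removed by the authors has no value. The array medians were between -0.0329 and -0.0117, and the scale and direction were used as deposited. No deposited column was left unused, and none holds comparisons of the authors.

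Of 16416 probes, 13163 name 1 gene in the platform annotation, 102 name several or none, and 3151 are not listed there, and the last 2 kinds were left out. Symbols are those of the NCBI gene table for 12668 probes (its assembly is Release 6 plus ISO1 MT) and of the platform for 495. Its coordinates are not printed, since the build of the array design differs, and it gave chromosome arms and gene order. Members within 5 protein-coding genes of each other form a run.

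Probes of a gene were averaged, then the 2 arrays of a replicate, so that a gene missing on 1 array takes the value of the other. The replicate means were tested against 0 with limma 3.58.1 in R 4.3.3 (prior degrees of freedom 1.8, prior SD 0.083), with Benjamini-Hochberg adjustment over 10036 genes. Standard errors are moderated, and rest mostly on the prior where replicates nearly coincide. The difference between replicates was tested with limma on 4 arrays with the dye of the mutant as a term, over 7257 genes. Across genes, which are not independent replicates, Pearson's r was 0.913 and 0.889 between arrays of a replicate and 0.757 to 0.848 between replicates, given as a description. Both fits were tested on simulated data with no missing values and the same dye shift for every gene. These simulations thus do not cover missing arrays or a dye difference of single genes.

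Named were genes called, at least 2-fold from 0 in the mean or at least 1 log2 unit apart between replicates, the highest and lowest of each family, genes not tested, and, in the lists, genes called and the highest and lowest. Other genes were named after their values were seen. The members and lists were chosen with earlier results of these data known. The alternatives left out single arrays or a replicate, treated arrays as independent or with the replicate as a random block, added the dye, used other scalings, probes and moderation, or changed the thresholds. Sequences of probes, promoters and proteins were not used here.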

Additional observations from a re-analysis of the deposited data

Results flagged for a closer look

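For Jon65Aiv the array of replicate 1 with the mutant in Cy5 stood apart from the other arrays. Its log2 ratio of 4.66 compares with 2.74, 2.53 and 2.59, and the gap to the nearest array was 0.901 of the range of the 4 values, above Dixon's critical value. The 4 arrays are not independent, being 2 dye-exchanged pairs, and 17 of the named genes with 4 values were tested in this way, where chance marks about 1 in 20. The mean of Jon65Aiv without this array was 2.65 (limma adjusted p = 0.0164).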

How the results depend on the processing

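The number of digestive enzyme genes called higher was 3, and it was 9 with the 4 arrays as independent samples and also with the biological replicate as a random block, 7 with the dye of the mutant as a covariate and 13 where a mean of at least 2-fold with 1 direction on every array was asked for, with no p. For the 13, the share of all genes was not counted, so that number is not read as a result about these genes. With single arrays left out the number called higher ranged from 1 to 4, where 1.49% to 1.9% of all genes were called higher. Without array 1, Mal-A5 alone was called. Without array 2, yip7 was called as well. The number called lower was 0, and 3 with no minimum fold change (Mal-B1, Jon99Cii and Jon99Fii), a setting where the share of all genes was not counted. The number that differed between replicates was 8, all higher in replicate 1. It was 6 with no dye term, and 6 with arrays scaled to a common median absolute deviation. With arrays centred on the median it was 9, and with no minimum difference 14. For these alternatives, too, the share of all genes was not counted, so their numbers are not read as a result about these genes. The median log2 ratio was between 0.41 and 0.51 with each array left out in turn, -0.01 without replicate 1 and 0.81 without replicate 2, so its sign rests on replicate 1. Among 307 values of single named genes under these settings, 18 gained the call and 2 lost it (Jon65Aiv and Jon25Bii without array 1). There were 3 with the other sign, all without replicate 1 and all of genes not called, namely tobi with -0.30, Jon99Fi with -0.20 and Amy-d with -0.07. Other scalings moved the median of all genes by at most 0.022. No paired analysis was possible because the series has 1 group, set against a pool on each array. The precision against wild type rests on the 2 extracts, the ratios hold no signal intensity, and genes without a value cannot be called unchanged.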
